A study of Mus musculus with 9 samples.

Results

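The Gimap genes (GTPases of immunity-associated proteins) form 1 cluster on mouse chromosome 6, and the 8 listed members, Gimap8, Gimap9, Gimap4, Gimap6, Gimap1, Gimap7, Gimap5 and Gimap3 in chromosomal order, were all found in the mm9 gene annotation, among 22380 protein-coding genes. Acetylation of histone H3 at lysine 27 (H3K27ac), a mark of active promoters and enhancers, was examined over the cluster and 50 kb on either side. The cells were naive CD8+ T cells sorted from the spleen as GFP+ TCRbeta+ CD62Lhi CD44lo-med CD8+ cells of young adult C57BL/6 mice. WT cells (4 samples) came from mice with hCD2-Cre, a Rosa26 GFP reporter and intact Tcf7 and Lef1. dKO cells (3 samples) came from mice with the same Cre and reporter and with floxed alleles of Tcf7 and Lef1, the genes of the transcription factors Tcf1 and Lef1. The Cre transgene acts mostly in mature T cells and leaves some cells undeleted, hence the gate on GFP. Both groups carried the Cre and the reporter, so an effect of either is common to both. The values are 2 deposited lists of H3K27ac-enriched intervals (islands), 1 per genotype, each called on pooled replicates with a read count per island. No difference computed below therefore has a replicate check, and no p-value is given. A lower count can come from fewer cells with the mark or less of it per cell, which cannot be told apart in pooled cells.

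The Gimap proteins are GTPases of lymphocytes that sit mostly on intracellular membranes and are known for their part in the survival and homeostasis of T cells and B cells. Gimap5, on lysosomes, and Gimap1 are each needed for normal numbers of peripheral lymphocytes, and loss of Gimap5 causes lymphopenia in rodents. Gimap6 is linked to autophagy, Gimap4 to the timing of apoptosis and Gimap3 to the handling of Gimap5, while Gimap8 is a long member with repeated GTPase domains. H3K27ac is laid down by the acetyltransferases p300 and CBP, and long, dense stretches of it are called super enhancers.

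The cluster spanned chr6:48597233-48716518 of mm9, 119.3 kb, and the window with its flanks spanned chr6:48547233-48766518, 219.3 kb. Gimap6 and Gimap3 are on the minus strand and the other 6 members are on the plus strand. The annotated Gimap1 gene begins at chr6:48668606 with a readthrough transcript that starts beside Gimap7 (chr6:48668620), whereas its other transcripts begin from chr6:48689053 on, so Gimap1 and Gimap7 share islands. The start sites of Gimap5 lie at chr6:48696196 and the 2 bases that follow.

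The promoters of all 8 members (250 bases before to 50 after the start, RefSeq, GRCm38.p6) were found once each and without mismatch in mm9, as 9 windows since Gimap8 has 2, and every one lay in an island of both lists. The RefSeq start of Gimap3, chr6:48720850, differs from the annotated start, chr6:48716518, that ends the cluster span. Its promoter window thus lies outside the span, though in the Gimap3 island. The letters CTTTGA of a Tcf/Lef site, on either strand, occurred in the promoters of Gimap4 and Gimap7, against 16.0% of 32851 RefSeq promoters. TGTGGT of a Runx site occurred in those of Gimap4, Gimap1 and Gimap7, against 16.8%, and CCGGAA, 1 form of an ETS site, in none, against 14.9%. Other forms of these sites were not searched, so the promoters may hold them. No match overlapped another. The ratio of observed to expected CpG was 0.104 to 0.325 in the 9 windows, below the median of 0.384 over all promoters. A match of letters is a description of the sequence and not a site of binding. The promoters with Tcf/Lef letters, Gimap7 and Gimap4, are shown with those of Gimap1 and Gimap5, which lie in the stretch that differed most between genotypes. All are on the plus strand, read 5′ to 3′, and capitals mark the Tcf/Lef letters (CTTTGA or TCAAAG) and the Runx letters (TGTGGT or ACCACA).
Gimap7, chr6:48668370-48668669: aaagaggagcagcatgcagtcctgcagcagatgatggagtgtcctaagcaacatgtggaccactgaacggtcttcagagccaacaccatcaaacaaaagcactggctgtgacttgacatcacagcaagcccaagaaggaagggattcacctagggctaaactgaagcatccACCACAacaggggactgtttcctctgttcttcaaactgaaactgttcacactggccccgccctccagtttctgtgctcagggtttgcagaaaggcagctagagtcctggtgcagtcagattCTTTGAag
Gimap4, chr6:48634327-48634626: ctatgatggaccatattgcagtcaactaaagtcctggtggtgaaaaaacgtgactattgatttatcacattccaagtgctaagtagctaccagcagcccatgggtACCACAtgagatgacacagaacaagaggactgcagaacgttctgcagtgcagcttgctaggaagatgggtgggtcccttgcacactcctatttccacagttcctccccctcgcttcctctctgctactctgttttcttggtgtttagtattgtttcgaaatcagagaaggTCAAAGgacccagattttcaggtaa
Gimap1, chr6:48688796-48689095: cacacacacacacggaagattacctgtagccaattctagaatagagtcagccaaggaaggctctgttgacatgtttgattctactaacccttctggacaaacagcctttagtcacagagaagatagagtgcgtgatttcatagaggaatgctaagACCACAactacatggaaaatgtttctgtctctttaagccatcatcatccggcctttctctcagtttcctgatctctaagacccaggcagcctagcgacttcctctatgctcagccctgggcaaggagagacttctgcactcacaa
Gimap5, chr6:48695946-48696245: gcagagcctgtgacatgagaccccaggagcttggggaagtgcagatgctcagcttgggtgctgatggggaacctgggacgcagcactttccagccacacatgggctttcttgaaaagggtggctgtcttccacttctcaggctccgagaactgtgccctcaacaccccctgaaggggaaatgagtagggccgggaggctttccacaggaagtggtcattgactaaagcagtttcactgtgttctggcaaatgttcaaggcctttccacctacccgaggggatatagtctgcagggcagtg
In Gimap7 the Tcf/Lef letters began 42 bases after the start and the Runx letters 79 bases before it. In Gimap4 they began 25 bases after and 145 bases before the start. Over the whole cluster span, CTTTGA or its complement occurred 0.83 times per kb. It occurred 1.02 times per kb in the region of Gimap1 and Gimap5 and 0.40 times per kb in that of the Gimap7 start, beside a median of 0.73 over the 45322 regions that had islands in both lists.

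The WT list held 65563 islands with 82668007 counts and the dKO list 82213 islands with 57665047 counts, or 210.5 and 134.3 counts per covered kb. Counts are given here as CPM, island counts scaled to the same total in each list, which leaves 2.55 CPM per covered kb in WT and 2.33 in dKO, as dKO islands covered more of the genome (429.3 against 392.7 Mb). All 7 CD8 T cell marker genes started in an island of both lists, with 1205 CPM in WT and 1149 in dKO over their distinct islands. The 4 B cell markers (242 and 234 CPM) and the 4 myeloid markers (234 and 229 CPM) did so too, while of 3 NK markers Klrb1c had islands (49.9 and 64.3 CPM) and Ncr1 and Klra8 had none. Cd4 had 27.3 CPM in WT and 41.9 in dKO. The part of such cells in the values over the Gimap genes was not tested. Island counts at the deleted genes were 769 and 855 CPM for Tcf7 and 675 and 506 CPM for Lef1 in WT and dKO, and since the mark need not leave a gene whose exons are lost, they check the genotype weakly.

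Islands lay over most of the Gimap cluster in both genotypes, with gaps between them. The 9 WT islands that touched the span were 119.8 kb long in sum and the 10 dKO islands 119.0 kb. In both lists these whole islands reach past the ends of the span, so the sums are not the length of the span under islands. The first start site of each of the 8 members lay in an island of both lists, as did all their other annotated start sites. Of all protein-coding genes, 59.4% started in a WT island and 59.4% in a dKO island. The share of the gene body under islands was 100% in both lists for Gimap9, Gimap6, Gimap5 and Gimap3, and lowest for Gimap8, at 68.7% in WT and 86.3% in dKO. Neither genotype lacked the mark at any Gimap promoter.

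**Figure D1:**
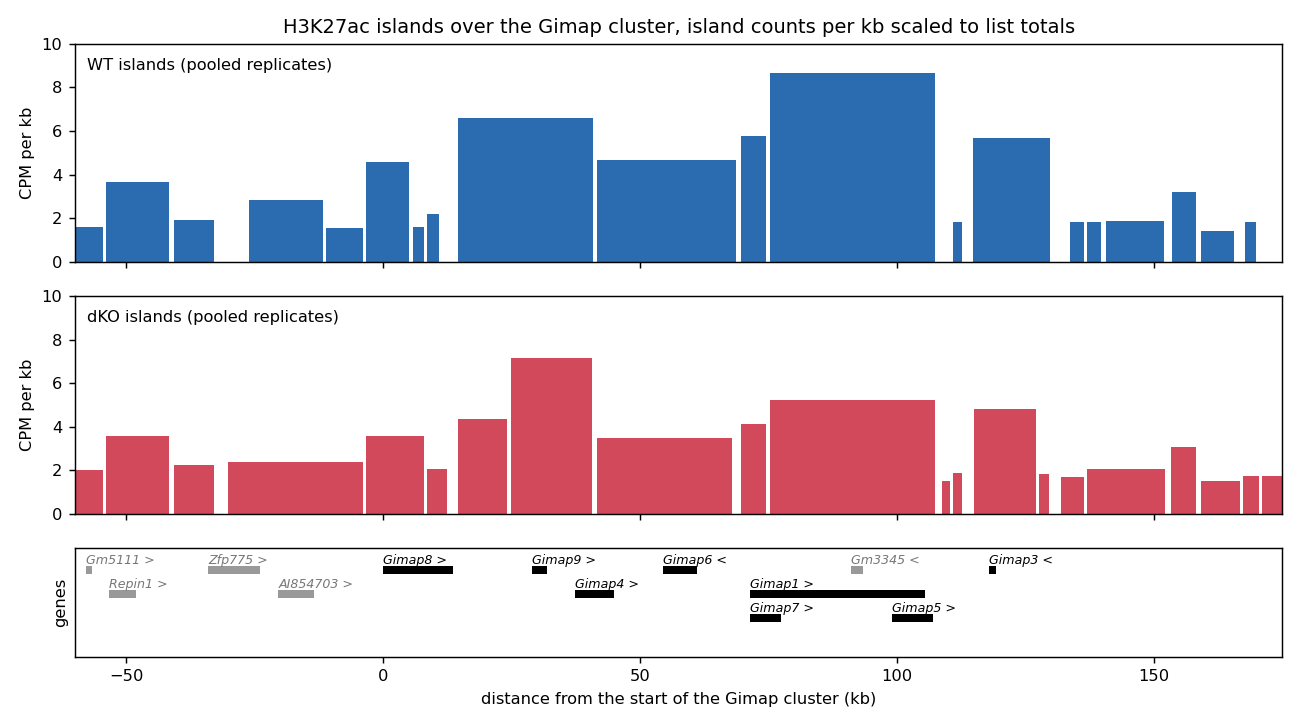
Island counts per covered kb in CPM (y axis) against distance from the start of the Gimap cluster in kb (x axis), for the WT islands (top) and the dKO islands (middle), with genes below (black, Gimap; grey, others; > and < give the strand). The tallest WT block, at 8.68 CPM per kb, covers Gimap1 and Gimap5, and the dKO block with the same borders stands at 5.20 CPM per kb.

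Summed over the cluster, scaled island counts were lower in the dKO list, and those summed over each flank were not. Over the span, WT islands held 743 CPM (61413 counts) and dKO islands 544 CPM (31391 counts), a log2 ratio of dKO to WT of -0.45 (95% interval -0.47 to -0.43), or -0.44 per covered kb. Here and below, intervals come from the exact conditional binomial (Clopper-Pearson) and cover counting error only. The left flank held 112 CPM in WT and 123 in dKO (log2 ratio 0.14) and the right flank 58.3 and 73.3 (0.33). Flank values count whole islands that do not touch the span. In dKO the right flank thus includes an island of 211 counts, chr6:48724801-48726800, whose bases in WT lie in the Gimap3 island counted with the span. Per covered kb these flank ratios were -0.01 and 0.03, as the islands counted there were longer in sum in dKO. Set against the 50 kb of a flank, that summed length was 92.8% in dKO and 83.6% in WT on the left. On the right it was 74.0% and 60.0%. These are not shares of the flank under islands. Whole islands reach past the window ends, and the part of the Gimap3 island in the right flank is left out. The whole window came to 913 CPM in WT and 741 in dKO (log2 -0.30, -0.32 to -0.28), which turned into -0.16 with flanks of 100 kb. By scaled counts, the sign of the difference over the Gimap genes was thus opposite to that in the flanks, and per covered kb the flanks were near 0.

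**Figure D2:**
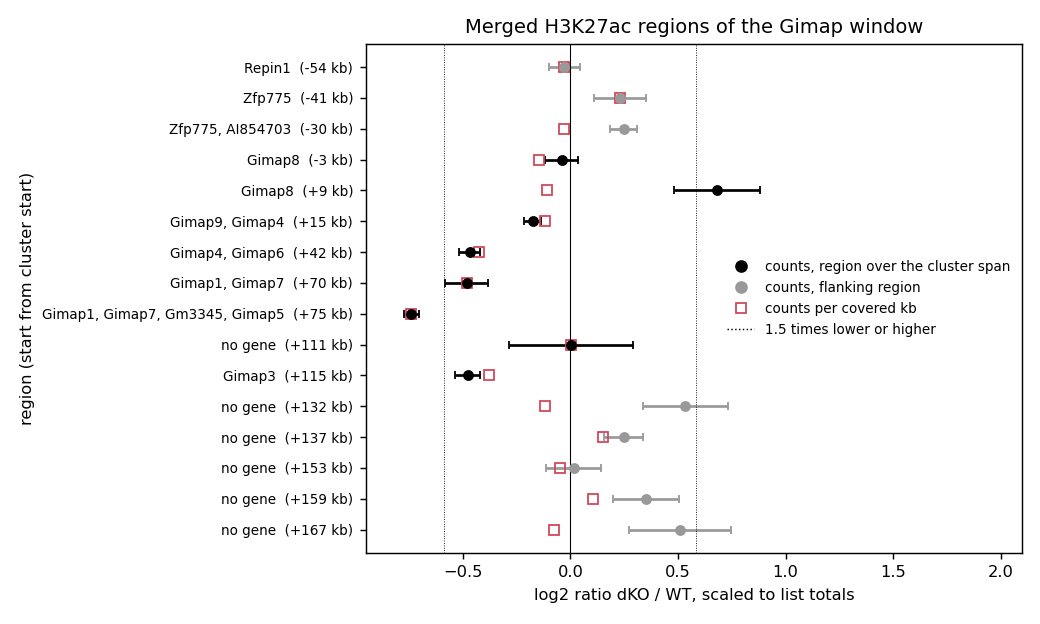
Log2 ratio of dKO to WT for the 16 regions of the window with islands in both lists (y axis, named by the genes they overlap and by the start in kb from the cluster start). Circles give counts scaled to list totals with 95% counting intervals, squares counts per covered kb, and dotted lines a ratio of 1.5 either way. The region of Gimap1 and Gimap5 sits leftmost at -0.74, and the Gimap8 region furthest right at 0.68 by counts moves to -0.11 per kb.

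Overlapping WT and dKO islands (by 1 bp or more) were joined into 17 regions over the window, 16 of them with islands from each list. Of the 8 over the span, 6 had a lower scaled count in dKO and 7 a lower count per kb. Of the 8 in the flanks, 7 had a higher scaled count in dKO, but 5 had a lower count per kb. These counts take differences of any size, and the share of all regions that differ by any size was not computed. By scaled count, the Gimap8 start in the span (log2 -0.04) and Repin1 in the flanks (-0.03) had intervals that span 0. In the left flank, the islands of Repin1 held 45.1 CPM in WT and 44.3 in dKO. Those of Zfp775 held 66.8 and 79.2, and those of the noncoding AI854703 held 52.1 and 61.8. The islands of AI854703 are also counted for Zfp775, and per kb their log2 ratio was -0.03. The median log2 ratio was -0.32 over the span and 0.25 in the flanks, beside -0.07 over all 45322 such regions, and per kb it was -0.26, -0.03 and -0.02. At a ratio of 1.5, 1 of the 16 regions was lower in dKO (14.6% of all regions) and 1 was higher (11.1% of all regions). Per kb, 1 was lower (4.51% of all regions).

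The region of Gimap1 and Gimap5 differed most. It was 1 island with the same borders in both lists, chr6:48672401-48704600, 32.2 kb long, which also held the end of Gimap7 and Gm3345, an annotated noncoding transcript on the minus strand. It held 23111 counts in WT and 9660 in dKO, 717.7 and 300.0 counts per kb. Scaled, this was 280 CPM in WT and 168 in dKO, a log2 ratio of -0.74 (-0.77 to -0.70), or 1.67 times lower. By counts it ranked 118 of 65563 islands in WT and 362 of 82213 in dKO. It made up 37.6% of the counts over the span in WT and 30.8% in dKO. Without it, the ratio over the span was -0.30.

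Since its borders were alike, the width of the island had no part in that ratio. Regions with the same borders in both lists were 6.89% of all and 5 of the 16 in the window. At a ratio of 1.5, 1 of those 5 was lower in dKO, against 3.49% of 3124 such islands in the genome, 34 of which had a lower ratio than the region of Gimap1 and Gimap5. This class of islands was chosen after the values were seen. When islands within 1 kb of each other were joined before merging, the neighbours of Gimap1 and Gimap5 fused with them, and 0 regions of the window were 1.5 times lower.

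The Gimap7 start, chr6:48666801-48671800, had the same borders in both lists too, with 2377 counts in WT and 1187 in dKO (log2 -0.48, -0.58 to -0.38). Gimap6 and the end of Gimap4 shared the region chr6:48638801-48665800, with 126 CPM in WT and 91.4 in dKO (log2 -0.47, -0.52 to -0.42). Gimap3, at the far end, lay in chr6:48712001-48727000, with 85.0 CPM in WT and 61.1 in dKO (log2 -0.48, -0.54 to -0.42; per kb -0.38). These 3 regions were thus alike, 1.38 to 1.40 times lower by scaled count in dKO, and none passed 1.5.

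Gimap9 and the start of Gimap4 differed less. In WT 1 island, chr6:48611801-48638000, held both start sites, with 14339 counts. In dKO 2 islands lay there, 1 of 9.4 kb with 2357 counts before Gimap9 and 1 of 15.8 kb with 6500 counts over both start sites. Summed, the region held 173 CPM in WT and 154 in dKO (log2 -0.18, -0.21 to -0.14; per kb -0.12). The island over the 2 start sites was the densest dKO island of the cluster, at 411.4 counts per kb (rank 662 of 82213), whereas the densest WT island was that of Gimap1 and Gimap5 (rank 787 of 65563). The order of densities within the cluster thus differed between the lists, although the borders over Gimap9 did too.

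Gimap8, the first gene of the cluster, had little difference at its start, with 42.0 CPM in WT and 40.8 in dKO over chr6:48593801-48605200 (log2 -0.04, -0.12 to 0.04). The region near its 3′ end, chr6:48605801-48609600, was the 1 region with a ratio over 1.5 in favour of dKO, from 398 counts in WT and 445 in dKO (log2 0.68, 0.48 to 0.88). Its island was 2.2 kb wide in WT and 3.8 kb in dKO, and per kb the ratio was -0.11. A short island without a gene, chr6:48708201-48709800 between Gimap5 and Gimap3, had the same borders and a log2 ratio of 0.00 (-0.29 to 0.29). An island at chr6:48706001-48707600, with 136 counts, was called in dKO alone.

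By gene, taking the regions from 1 kb before the start to the end of the gene, the log2 ratio was 0.05 for Gimap8, -0.18 for Gimap9, -0.29 for Gimap4, -0.47 for Gimap6, -0.71 for both Gimap1 and Gimap7, -0.74 for Gimap5 and -0.48 for Gimap3. At a ratio of 1.5, 3 of the 8 genes were lower in dKO, against 9.67% of the 14699 protein-coding genes that had islands in each list. The 3, Gimap1, Gimap7 and Gimap5, take their counts from the same large island, so they are 1 difference counted 3 times. The median of the 8 was -0.47, beside -0.07 over all these genes. Since neighbours share islands, the 8 values are not independent.

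**Figure D3:**
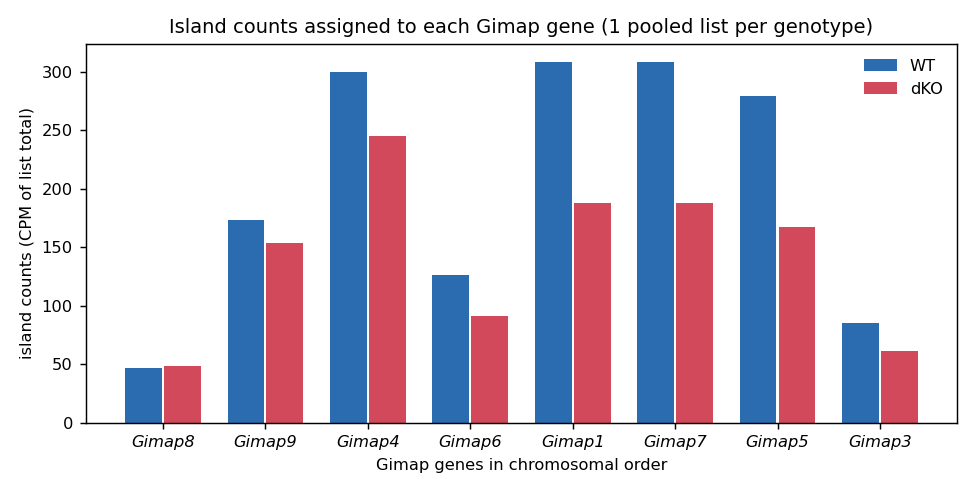
Island counts in CPM (y axis) assigned to each Gimap gene in chromosomal order (x axis), with blue bars for WT and red bars for dKO, 1 pooled list each, so without error bars. Gimap1, Gimap7 and Gimap5 have the widest gaps, and Gimap8 stands at 46.8 CPM in WT and 48.5 in dKO.

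Across the genome, dense regions had lower ratios than sparse ones, and the Gimap regions are dense. Density was taken as the geometric mean of the 2 lists' CPM per covered kb, a measure added after the values were seen. Among regions at 1.5 to 2 CPM per kb, the median log2 ratio per kb was 0.03 (20001 regions), at 3 to 4 it was -0.22 (3416 regions), at 4 to 5 it was -0.33 (1809 regions) and at 6 to 7 it was -0.37 (613 regions). The share of regions 1.5 times lower per kb in dKO was 12.1% at 3 to 4, 20.5% at 4 to 5 and 27.4% at 6 to 7 CPM per kb. The density of the Gimap regions is the background against which their ratios are to be read.

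Most Gimap regions lay near the median of their density. The Gimap3 region, at 4.97 CPM per kb, differed from the median of its bin by -0.04 on the log2 scale, the region of Gimap4 and Gimap6 by -0.09 and the Gimap7 start by -0.15. The region of Gimap1 and Gimap5, at 6.72 CPM per kb, differed by -0.37, and 106 of the 613 regions of its bin (17.3%) had a lower ratio. In contrast, the region of Gimap9 and Gimap4, at 6.35 CPM per kb, lay 0.25 above its median, with 500 of 613 regions (81.6%) lower. The Gimap8 start was 0.07 above. In all, 6 of the 8 regions of the span lay below the median of their bin and 2 above, while in the flanks 2 of 8 lay below and 6 above. By construction, as many regions of a bin lie below its median as above it. Some of these offsets were small. In the span they were -0.05 at the Gimap8 end, -0.03 at the region without a gene and -0.04 at Gimap3. In the flanks the region of Zfp775 and AI854703 was at 0.03. Of the 491 islands with the same borders and at least 4 CPM per kb, 14.1% were 1.5 times lower in dKO, with a median of -0.41. Whether the lower ratios of dense regions come from the cells or from the enrichment of the pooled libraries cannot be told apart with 1 list per genotype.

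**Figure D4:**
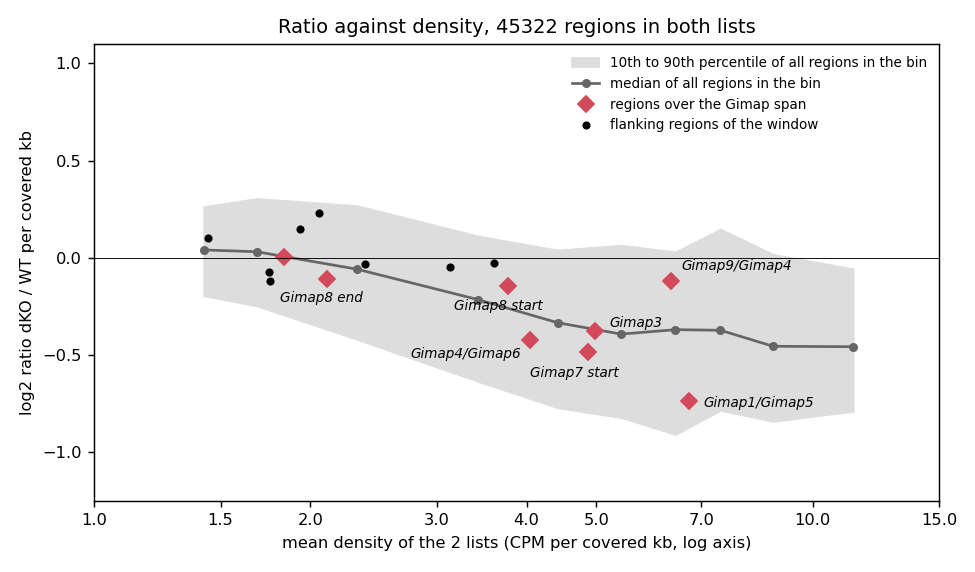
Log2 ratio of dKO to WT per covered kb (y axis) against mean density in CPM per covered kb (x axis, log scale). The grey line joins the medians of 45322 regions in 10 density bins with a band from the 10th to the 90th percentile, red diamonds are the regions over the Gimap span (the unlabelled one holds no gene) and black dots the flanking regions. The median declines to -0.46 in the densest bin, most diamonds lie near the line, Gimap1/Gimap5 lies below it, by -0.37 from the median of its bin, and Gimap9/Gimap4 lies 0.25 above.

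The Gimap genes are paralogs, so their sequences were searched for copies. Of the stretches of 50 bases in the cluster span, 96.1% occurred once in the mm9 genome, and 96.4% did in the region of Gimap1 and Gimap5. Among exons, the share was 79.0% for Gimap3 and 91.9% for Gimap5, where no stretch occurred more than 2 times, and 100% for Gimap9, Gimap4 and Gimap7. The promoters were unique throughout. The authors kept uniquely mapped reads, and since the read length is not given in the sources used here, these shares only approximate what their reads could reach.

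The cluster was part of a super enhancer in both lists. With islands stitched within the default distance of ROSE, the program the study used, and ranked by island counts, the stitched domain that held all 8 members ranked 40 in WT, among 1138 super enhancers (chr6:48435801-48819000), and 109 in dKO, among 973 (chr6:48422601-48871000). The ranks depended on the distance, at 32 and 31 with 5 kb and 80 and 139 with 20 kb. They compare domains of unlike length, 383.2 kb in WT and 448.4 kb in dKO at the default distance. There the domain held 1170 CPM in WT and 1084 in dKO, against 853 and 1008 with 5 kb and 1170 and 1206 with 20 kb. The dKO domain at the default distance coincides with an interval in the study's list of WT-prepotent super enhancers. That list was drawn up on these libraries and pairs the interval with Tmem176a and Tmem176b, genes of membrane proteins that lie beyond the right flank. The study made that list with edgeR on reads of the individual replicates. Its call of a stronger signal in WT over the interval thus rests on replicates. Over that interval the pooled lists held 1172 and 1084 CPM (log2 -0.11), a measure and scaling unlike the study's. The Gimap span made up 63.4% of the counts over the interval in WT and 50.2% in dKO. The rest of it held 429 CPM in WT and 540 in dKO (log2 0.33, per kb -0.06), and the islands of Tmem176a and Tmem176b 44.3 and 55.6 CPM (log2 0.33). The Gimap span thus held fewer CPM in dKO, while the rest of the interval held more in sum. Within that rest the values went both ways, as Gm5111 had 15.1 CPM in WT and 12.9 in dKO. Its island was narrower in dKO, though (6.4 kb against 9.4 kb), and per kb its log2 ratio was 0.32.

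**Figure D5:**
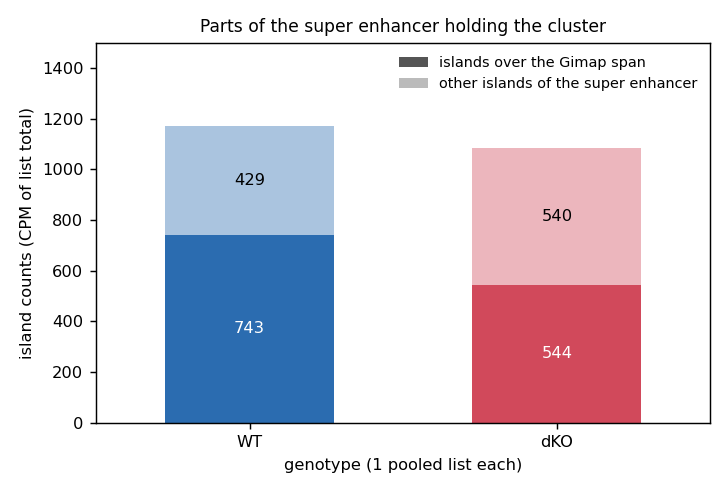
Island counts in CPM (y axis) over the super enhancer that holds the cluster, for WT and dKO (x axis, 1 pooled list each), split into islands over the Gimap span (full colour) and the other islands (light). The Gimap part is 743 CPM in WT and 544 in dKO, and the rest 429 and 540.

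Related genes were counted for comparison. The 12 interferon-inducible GTPase genes of the Gbp, Irgm and Tgtp families, which act against intracellular pathogens, all had islands in both lists, and 0 were lower and 0 higher by 1.5 times, beside 9.67% and 7.21% of all protein-coding genes, so that a list of 12 would hold few such genes (median log2 -0.13). The Schlafen cluster on chromosome 11 includes Slfn2, known for T cell quiescence. This cluster had 577 CPM in WT and 493 in dKO (log2 -0.23, per kb -0.13). All islands of the 1608 kb interval that spans 6 killer lectin-like receptor genes held 1382 and 1448 CPM (0.07, per kb -0.08). That sum includes islands outside these genes. The 5 of them with islands in each list had a median of 0.37 (per kb -0.12). At 309 counts per kb in WT and 196 in dKO the Schlafen islands were less dense than those of the Gimap span, at 513 and 264. Of the study's pan-T lineage-enriched genes, 145 besides the 4 Gimap members had islands in both lists, of which 18 were lower and 4 higher by 1.5 times (median -0.08), and per kb 7 were lower and 1 higher. Of its pan-NK genes, 204 besides the 6 Gimap members had such islands, of which 18 were lower and 25 higher (median 0.04), and per kb 6 were lower and 5 higher. Per kb, 12.0% of all protein-coding genes were lower and 0.544% higher by 1.5 times. Both lists of lineage genes come from the study by name.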

How the data were processed

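H3K27ac ChIP-seq reads of 4 WT and 3 dKO samples were aligned by the authors to mm9 with Bowtie2 2.2.5, after FastQC, and kept at a mapping quality above 10. Replicates were pooled per genotype, and SICER 1.1 called islands at an FDR of 0.01 in windows of 200 bp with gaps of up to 400 bp. The deposited values are whole-number read counts per island, with no scaling for depth or width. The input samples have no values of their own in the lists and were not analysed here, and the treatment of duplicate reads is not given in the sources used here. A count exists only inside a called island, and the island total is not the sequencing depth, so scaling to it does not separate depth from enrichment.

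Starts were converted to count from 1. Counts were scaled to list totals (CPM). Islands sharing at least 1 bp across lists were merged. Log2 ratios carry exact Clopper-Pearson 95% intervals that cover counting error only, and a ratio of 1.5 stood in for a test. Super enhancers were stitched within the default ROSE distance and cut at slope 1 without input, unlike ROSE. Gene positions came from GENCODE vM1 (mm9) and promoter sequences from RefSeq (GRCm38.p6). Python 3.11.15, numpy 2.4.6 and scipy 1.17.1 were used, and the steps were tested on simulated data. The genes named were all members, genes overlapping the window, Tcf7, Lef1, listed GTPases past 1.5 and the 2 comparison clusters. Genes beyond these follow the study's lists or were named after their values were seen. Members and lists were chosen with earlier results of these data known. The alternatives varied scaling, measure, flanks, filters, joining, the ratio and the stitching distance.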

Additional observations from a re-analysis of the deposited data

How the results depend on the processing

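With 1 pooled list per genotype, replicate spread cannot be had, and differences in enrichment between the pooled libraries cannot be told apart from differences in the cells. The log2 ratio of the window, -0.30, was -0.38 per covered kb, -0.23 with totals over shared regions or with the median ratio set to 0, -0.32 with islands wholly inside, -0.45 without flanks and -0.16 with flanks of 100 kb. It moved by less than its counting error with flanks of 20 kb, autosomal totals or a filter of 3 CPM. The ratio of the Gimap1 and Gimap5 island, -0.74, was -0.67 with either of the first 2 other scalings and -0.70 with the median of same-border islands set to 0, and that of the span, -0.45, was -0.30 without this island (alternatives added after seeing the data). Set against regions of like density, also added, the region of Gimap9 and Gimap4 turned from -0.12 per kb to 0.25, the Gimap8 start from -0.15 to 0.069 and the region without a gene from 0.00 to -0.027. The others kept their sign but shrank, to -0.05 at the Gimap8 end, -0.09 at Gimap6, -0.15 at the Gimap7 start, -0.37 at Gimap1 and Gimap5 and -0.04 at Gimap3. Regions of the window lower by the ratio numbered 1, then 4 at the lower ratio tried, 0 at a ratio of 2 and 0 with islands within 1 kb joined. Those higher numbered 1, then 4 at the lower ratio, 0 at 2, 0 per kb, and 2 with shared totals or with joined islands. The 19 islands of each list became 8 and 8 when joined within 1 kb, and 2 in WT and 1 in dKO when joined within 5 kb. All 8 promoters stayed in islands, and all 8 members inside a super enhancer, under every alternative run for these. No paired analysis was possible because the lists pool the replicates and carry no replicate number.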

Other observations

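The window of the cluster stood high among tiles of its size, although it was laid around the cluster and the tiles were not laid around dense stretches. Of 5905 autosomal tiles of 219.3 kb with islands in both lists, 19 held more CPM than the Gimap window in WT and 70 did in dKO. A lower log2 ratio than that of the window was found in 1619 of these tiles, or 27.4%, and in 318 of the 2122 tiles with at least 200 CPM in WT. At the far end of the same super enhancer, Abp1, the gene of a diamine oxidase, was chosen after its values were seen. It had 145 counts in 1 island of 1.0 kb in WT and 1025 counts in 2 islands of 12.4 kb in dKO (1.75 and 17.8 CPM), while its log2 ratio per covered kb was -0.29, so the higher count came with wider islands.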
